A study of Mus musculus with 15 samples.

Results

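The genes described here are those through which cells sense, make and export the lysophospholipids sphingosine-1-phosphate (S1P) and lysophosphatidic acid (LPA). They were taken by symbol as the S1P receptor genes S1pr1, S1pr2 and S1pr3, the sphingosine kinase genes Sphk1 and Sphk2, the S1P exporter gene Spns2, the LPA receptor genes Lpar1, Lpar4 and Lpar6, and Enpp2, which encodes the LPA-producing enzyme autotaxin. All 10 were found among the 45706 genes of the deposited table, and all 10 were among the 17650 genes that passed the filter on low counts. RNA was sequenced from lymphatic endothelial cells (LECs) of female C57Bl/6 mice. The cells had been isolated from pooled lymph nodes as Pdpn+ CD31+ CD45- cells and kept in culture. The 3 groups were unstimulated cells, cells given 10 ng/mL and cells given 100 ng/mL of recombinant murine VEGF-C, each for 72 h and with 5 libraries, lettered A to E. All groups shared the serum-containing medium. Whether the libraries were grown as separate cultures is not stated in the labels. The p-values therefore cover only the library-to-library spread, which may be technical. Part of that spread was shared between doses by libraries of different letters, as given below, and the fit did not pair them.

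S1P is made inside cells when Sphk1 or Sphk2 phosphorylates sphingosine, and Spns2 carries it out of endothelial cells, including the LECs that supply S1P to lymph. Outside the cell S1P acts on a family of G protein-coupled receptors, of which S1pr1 signals through Gi and Rac and tightens endothelial junctions, while S1pr2 signals through G12 and G13. Lymphocytes leave lymph nodes by following S1P with their own S1pr1. LPA is made outside cells by autotaxin from lysophosphatidylcholine. It acts on Lpar1, a relative of the S1P receptors, and on Lpar4 and Lpar6, which belong to a separate, P2Y-like receptor family.

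Total estimated counts ran between 27784906 and 38590841 per library. A principal component with 64.8% of the variance set the 100 ng/mL libraries, at 38.8 to 78.5, apart from the other 10 libraries, at -41.8 to -22.7. On the next component (12.6%) 1 library of each group stood apart, at -41.1 (E, unstimulated), -28.2 (D, 10 ng/mL) and -45.1 (B, 100 ng/mL). Libraries were matched between groups by the correlation of their deviations from the group mean over all genes tested. The best match of 10 ng/mL D was unstimulated E (0.786). Those of 100 ng/mL B were 10 ng/mL D (0.428) and unstimulated E (0.559). The libraries that stood apart were thus linked to one another. Of the defining LEC markers, Prox1, Flt4, Pdpn and Pecam1 were detected in every library, at lowest levels of 102, 496, 51.8 and 1441 CPM (counts scaled for library size and composition), while the LEC genes Ccl21a and Mmrn1 were near 0 and were not tested. Fibroblastic and mural markers were also present: the 18 genes summed to between 2780 and 4697 CPM in unstimulated and 10 ng/mL libraries and to between 957 and 1416 CPM at 100 ng/mL. Thy1 alone gave 658 to 802 CPM of the sum at 100 ng/mL and 841 to 1156 CPM in the other libraries. It therefore made up most of the sum at 100 ng/mL. By the edgeR test used throughout, 14 of the 15 fibroblastic and mural markers tested fell and 0 rose at 100 ng/mL against unstimulated, with a median log2 fold change of -2.23. Of the leukocyte markers 9 of 10 tested fell. Ptprc, the CD45 gene, was at 6.95 CPM or less in every library, whereas the myeloid gene Lyz2 averaged 11 ± 4.94 CPM at 100 ng/mL and 41.9 ± 17.8 CPM unstimulated. LEC markers rose in 8 of 10 tested. Those that did not pass were the defining markers Prox1 (log2 fold change 0.98, adjusted p = 0.0589) and Pdpn (0.30, adjusted p = 0.453). Over all genes tested 21.4% rose and 21.5% fell in this comparison. In bulk RNA, fewer cells of a type and less RNA per cell cannot be told apart.

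At 100 ng/mL against unstimulated cells, 6 of the 10 genes passed the test (edgeR quasi-likelihood test, Benjamini-Hochberg adjusted p under 0.05). Levels are given with their SD and log2 fold changes with their SE. S1pr1 rose, and S1pr2, S1pr3, Spns2, Lpar1 and Enpp2 fell. Across all genes tested 42.9% passed in this comparison, 21.4% higher and 21.5% lower. The libraries of the 2 groups did not overlap for 5 of the 10, against 27.3% of all genes. The median log2 fold change of the 10 was -0.77, against 0.01 over all genes tested. Sphk1, Sphk2, Lpar4 and Lpar6 did not pass.

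**Figure D1:**
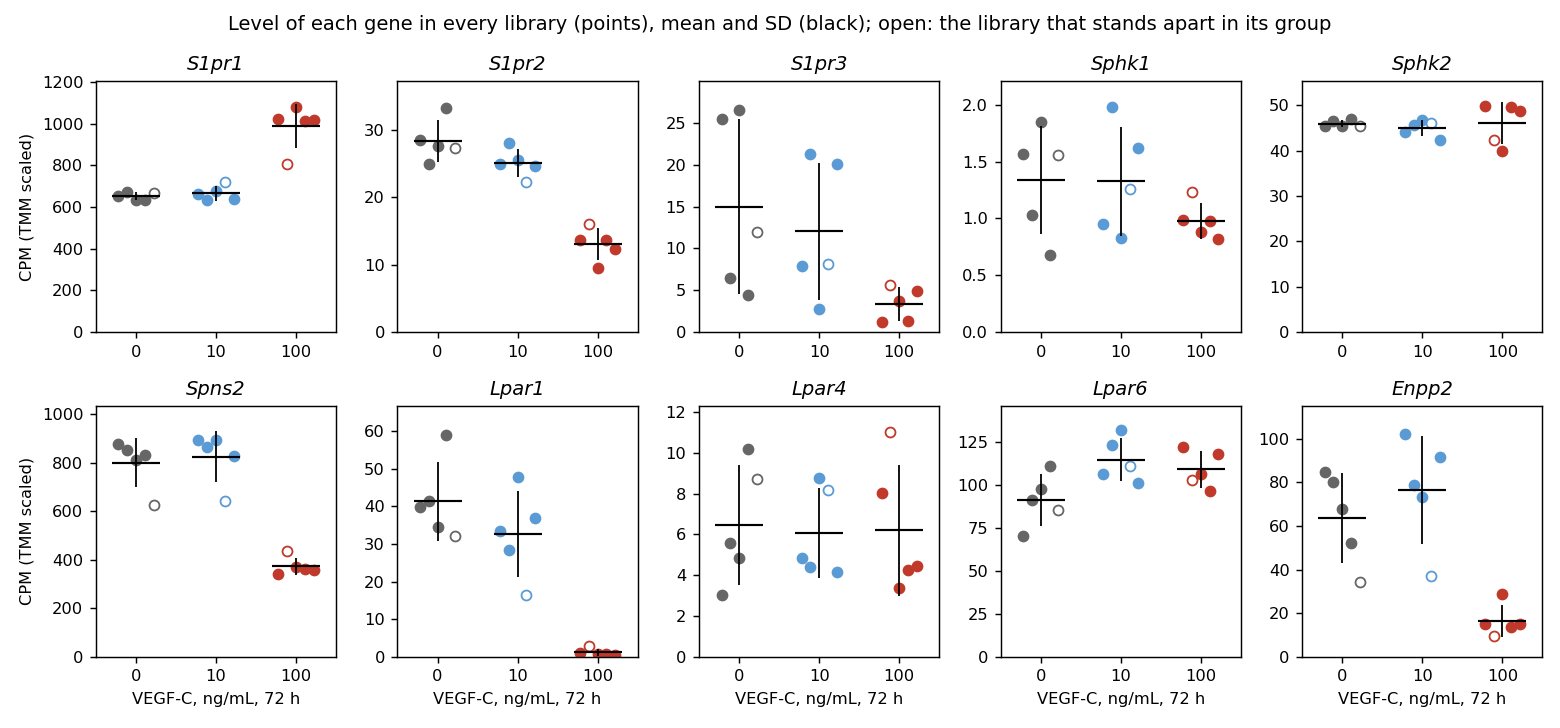
Level of each of the 10 genes in CPM (vertical axis, linear, from 0) at 0, 10 and 100 ng/mL VEGF-C, with 1 point per library, a black bar for the mean and a line for the SD of 5 libraries. Open points mark the library of each group that stood apart. The 100 ng/mL points of S1pr1 lie above all others, at 804 to 1079 CPM, and those of Lpar1 lie near 0, at 0.536 to 2.78 CPM.

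On a length-scaled basis, S1pr1 and Spns2 were by far the most abundant of the 10 in every group. S1pr1 averaged 115 ± 4.53, 115 ± 6.53 and 170 ± 18 RPKM (reads scaled to gene length and library size, mean ± SD, n = 5) in unstimulated, 10 ng/mL and 100 ng/mL cells. Spns2 averaged 109 ± 13 RPKM in unstimulated, 109 ± 13.7 RPKM in 10 ng/mL and 49.4 ± 4.77 RPKM in 100 ng/mL cells. The libraries of S1pr1 and Spns2 overlapped in RPKM in unstimulated and 10 ng/mL cells and did not overlap at 100 ng/mL. In unstimulated cells Enpp2 and Lpar6 followed, both at 9.82 RPKM and overlapping, then Sphk2 at 7.51 RPKM, which overlapped neither Lpar6 above nor S1pr2 below. S1pr2 at 5.42 and Lpar1 at 5.17 RPKM overlapped each other. S1pr3 at 1.81 and Lpar4 at 0.82 RPKM overlapped too, and Sphk1 was lowest at 0.158 RPKM. At 10 ng/mL the order was the same except that Lpar6 (12.1 RPKM) and Enpp2 (11.5 RPKM), which overlapped, changed places. At that dose Enpp2 also overlapped Sphk2, and Lpar1 overlapped S1pr3. At 100 ng/mL Lpar6 (11.5 RPKM) and Sphk2 (7.34 RPKM) stood next below Spns2, without overlap with their neighbours. Enpp2 at 2.47 and S1pr2 at 2.44 RPKM overlapped. The lowest places were taken by Lpar4 at 0.768, S1pr3 at 0.394, Lpar1 at 0.142 and Sphk1 at 0.112 RPKM, each overlapping its neighbour in that order.

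The promoter windows of S1pr2, S1pr3 and Lpar1 are printed because these 3 receptor genes fell together at 100 ng/mL. Each runs from 250 bases before to 50 bases after a start site in RefSeq on GRCm38.p6 and reads 5′ to 3′ along the gene's own strand. Capitals mark matches on either strand to GGGCGG (the GC box bound by Sp and KLF factors), CACCC (the KLF box), CCGGAA (the ETS core) and TAAACA (the forkhead core). The S1pr2 window is chr9:20976744-20977043, minus strand. The S1pr3 window is chr13:51408368-51408667, plus strand. The Lpar1 window is that of the outermost of 3 listed starts, chr4:58553442-58553741, minus strand.
S1pr2: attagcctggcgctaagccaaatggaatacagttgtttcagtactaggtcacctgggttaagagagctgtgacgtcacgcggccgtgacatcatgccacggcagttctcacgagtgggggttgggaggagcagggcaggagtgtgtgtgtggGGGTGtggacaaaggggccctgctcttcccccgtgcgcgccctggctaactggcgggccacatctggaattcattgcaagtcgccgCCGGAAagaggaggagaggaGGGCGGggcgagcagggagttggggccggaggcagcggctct
S1pr3: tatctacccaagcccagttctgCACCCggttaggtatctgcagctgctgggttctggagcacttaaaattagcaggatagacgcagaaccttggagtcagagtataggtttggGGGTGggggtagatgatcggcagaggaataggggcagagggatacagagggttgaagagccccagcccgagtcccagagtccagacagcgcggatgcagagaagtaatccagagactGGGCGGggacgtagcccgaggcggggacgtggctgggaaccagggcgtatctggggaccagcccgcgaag
Lpar1: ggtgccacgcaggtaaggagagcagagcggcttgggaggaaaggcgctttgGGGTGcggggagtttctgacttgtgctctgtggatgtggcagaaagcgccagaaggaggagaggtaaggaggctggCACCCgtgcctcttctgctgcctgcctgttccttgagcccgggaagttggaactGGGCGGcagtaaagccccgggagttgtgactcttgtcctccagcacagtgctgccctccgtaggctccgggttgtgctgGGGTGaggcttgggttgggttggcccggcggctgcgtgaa
All 3 printed windows held both a GC box and at least 1 CACCC box, a combination found in 23.8% of the 32851 promoter windows in the table. It was not particular to genes that fell, since both listed windows of Sphk2, which did not pass the test, held it as well. Of the other Lpar1 starts, the second held both boxes, while the third held neither and had 1 forkhead core. Singly, GGGCGG occurred in 35.7%, CACCC in 57.5%, CCGGAA in 14.9% and TAAACA in 13.4% of all windows. S1pr2 also held 1 ETS core, and none of the 3 printed windows held the forkhead core. A match describes these letters and is not a binding site. RefSeq listed windows for 8 of the 10 genes, not for S1pr1 and Enpp2. The listed Spns2 window, chr11:72474978-72475277 on the minus strand, held none of the 4 motifs. It lies inside the gene, whose annotated 5′ end is at 72489904, and the sequence at that end was not searched.

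S1pr1 (ENSMUSG00000045092, chr3:115710433-115715072, minus strand) encodes the S1P receptor that couples to Gi. At 100 ng/mL it measured 1022, 804, 1079, 1010 and 1016 CPM in libraries A to E, against 655, 672, 634, 634 and 666 CPM in unstimulated cells. Every 100 ng/mL library lay above every unstimulated library, and library B was the lowest of the treated 5. The means were 986 ± 105 CPM at 100 ng/mL and 652 ± 17.8 CPM unstimulated (SD, n = 5 each). This was a rise of 1.51-fold, or 0.60 ± 0.07 on the log2 scale (SE, adjusted p = 8.73e-06). Without the 3 libraries that stood apart it was 0.67.

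S1pr2 (ENSMUSG00000043895, chr9:20962361-20976781, minus strand), the G12 and G13-coupled S1P receptor, moved the other way. It measured 13.7, 16.1, 9.57, 13.7 and 12.4 CPM in 100 ng/mL libraries A to E, against 28.5, 24.9, 27.6, 33.3 and 27.3 CPM in unstimulated ones. The groups did not overlap, with the highest treated library at 16.1 CPM and the lowest unstimulated at 24.9 CPM. S1pr2 fell 2.16-fold (log2 fold change -1.11 ± 0.12, adjusted p = 2.68e-06), and -1.21 without the 3 libraries that stood apart.

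S1pr3 (ENSMUSG00000067586, chr13:51408639-51422797, plus strand), an S1P receptor also known from vascular smooth muscle, fell with far more spread between libraries. Levels were 1.19, 5.68, 3.69, 1.35 and 4.9 CPM in 100 ng/mL libraries A to E, and 25.5, 6.45, 26.5, 4.49 and 11.9 CPM in unstimulated ones. Unstimulated A and C were high and B and D low, and D lay below treated B and E, so the groups overlapped. Each treated library A to E was nonetheless below its best-matched unstimulated library, D, E, B, B and C in turn. No paired test was run. S1pr3 fell 4.44-fold (log2 fold change -2.15 ± 0.64, adjusted p = 0.0131), and -2.48 without the 3 libraries that stood apart (adjusted p = 0.0174).

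The order of the libraries by S1pr3 was set beside that of single markers, which differed among themselves. Within each group the libraries high in S1pr3 were those high in Col1a1, the fibroblast collagen gene. Col1a1 measured 35.4, 172, 66.2, 55.1 and 139 CPM in 100 ng/mL libraries A to E and 845, 319, 899, 243 and 484 CPM in unstimulated ones. The order of the 5 libraries from low to high was the same for S1pr3 and Col1a1 in both groups. It was the same at 10 ng/mL too, where S1pr3 measured 7.93, 21.3, 2.73, 8.11 and 20.1 CPM and Col1a1 297, 762, 179, 335 and 604 CPM. Other markers of the same list went differently. Unstimulated D, lowest in S1pr3, was highest in Acta2 (383 CPM) and Thy1 (1156 CPM), and unstimulated C, highest in S1pr3, was lowest in Thy1 (913 CPM). The likeness to Col1a1, Pdgfra and Pdgfrb was looked for after the values were seen. The part of fibroblastic RNA in the fall of S1pr3 was not tested.

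**Figure D2:**
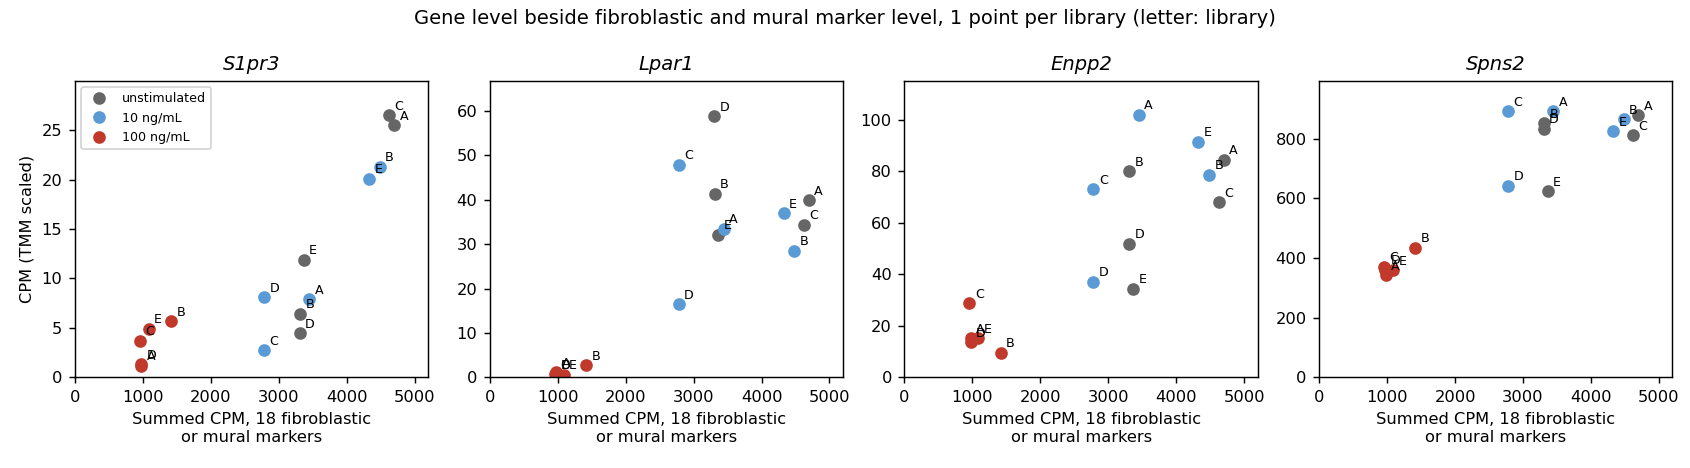
Level of S1pr3, Lpar1, Enpp2 and Spns2 in CPM (vertical axes, linear) against the summed level of 18 fibroblastic or mural marker genes in the same library (horizontal axis), 1 point per library with its letter. S1pr3 was highest in unstimulated A and C and 10 ng/mL B and E, the libraries with the highest marker sums of their groups, whereas Lpar1 was highest in unstimulated D and 10 ng/mL C, with marker sums of 3304 and 2782 CPM.

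Among the S1P receptors the share of S1pr1 was higher at 100 ng/mL. S1pr1 made up 97.5 ± 0.347% of the summed RPKM of the 5 S1P receptor genes at 100 ng/mL and 93.7 ± 1.1% in unstimulated cells (SD, n = 5 each). The share of S1pr2 was 1.44 ± 0.419% at 100 ng/mL and 4.41 ± 0.564% unstimulated. That of S1pr3 was 0.236 ± 0.163% at 100 ng/mL and 1.46 ± 1.02% unstimulated. The S1pr1 and S1pr2 shares did not overlap between these groups. Of the other 2 receptors, S1pr4, best known from leukocytes, rose to 6.39 ± 2.01 CPM at 100 ng/mL, against 2.48 ± 0.746 CPM unstimulated (log2 fold change 1.36 ± 0.26, adjusted p = 0.000551). S1pr5 averaged 0.0236 CPM at 100 ng/mL and 0.0119 CPM unstimulated and was not tested.

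**Figure D3:**
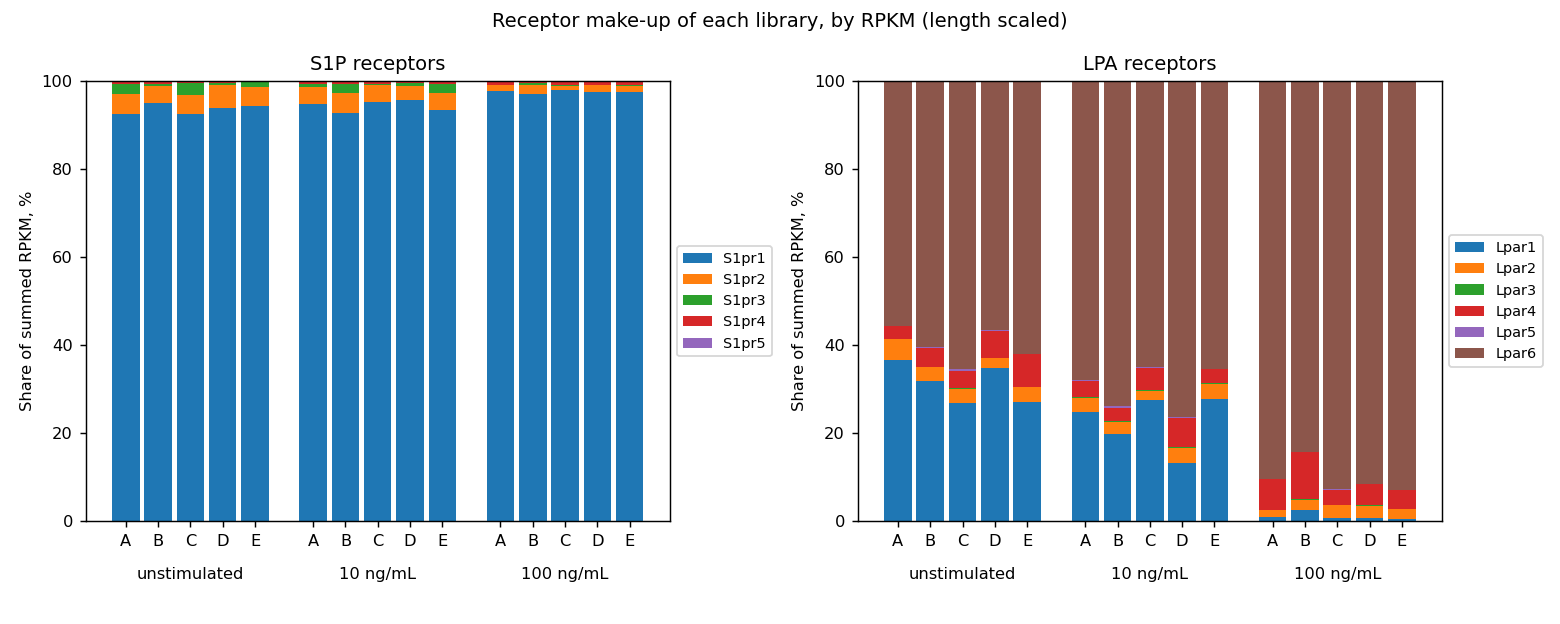
Share of each receptor gene in the summed RPKM of the 5 S1P receptor genes (left) and of the 6 LPA receptor genes (right), as stacked bars in percent for each library A to E of the 3 groups. S1pr1 took between 92.5 and 97.9% in every library. Lpar1 took 0.491 to 2.65% of the LPA receptor RPKM at 100 ng/mL and 26.8 to 36.7% in unstimulated libraries.

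Spns2 (ENSMUSG00000040447, chr11:72451638-72489904, minus strand), the exporter that releases S1P from LECs, fell at 100 ng/mL. It measured 343, 434, 371, 360 and 358 CPM in treated libraries A to E, against 878, 851, 812, 833 and 624 CPM in unstimulated ones. The groups were far apart, and the lowest unstimulated library, E, was still above the highest treated library, B. The means were 373 ± 35.5 CPM at 100 ng/mL and 799.4 ± 101.3 CPM unstimulated, a 2.14-fold fall (log2 fold change -1.10 ± 0.11, adjusted p = 1.55e-06). Without the 3 libraries that stood apart it was -1.24. The ratio of Spns2 to S1pr1 RPKM was 0.297 ± 0.0667 at 100 ng/mL and 0.944 ± 0.127 in unstimulated cells (SD, n = 5 each), with no overlap between the groups.

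The kinases upstream of Spns2 did not pass the test. Sphk2 (ENSMUSG00000057342, chr7:45709467-45718002, minus strand) measured 49.8, 42.4, 39.9, 49.7 and 48.7 CPM at 100 ng/mL, against 45.5, 46.6, 45.4, 47 and 45.5 CPM unstimulated. The unstimulated libraries lay within the range of the treated ones. The log2 fold change was 0.00 with a 95% interval of -0.12 to 0.13 (adjusted p = 0.965). Sphk1 (ENSMUSG00000061878, chr11:116530925-116536674, plus strand) was scarce, at 0.983, 1.23, 0.877, 0.974 and 0.818 CPM in 100 ng/mL libraries and 1.57, 1.03, 1.85, 0.678 and 1.56 CPM in unstimulated ones. The groups overlapped, and the log2 fold change was -0.45 with an interval of -1.03 to 0.14 (adjusted p = 0.212).

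Lpar1 (ENSMUSG00000038668, chr4:58435255-58553898, minus strand), the LPA receptor best known from fibroblasts and nervous tissue, showed the largest change of the 10. It measured 1.1, 2.78, 0.688, 0.696 and 0.536 CPM in 100 ng/mL libraries A to E, against 39.9, 41.4, 34.4, 58.9 and 32.1 CPM in unstimulated ones. All treated libraries were low, with 18.8 to 83.3 estimated counts, far below every unstimulated library, and library B was the highest of them. The means were 1.16 ± 0.93 CPM at 100 ng/mL and 41.33 ± 10.53 CPM unstimulated, a 35.9-fold fall (log2 fold change -5.16 ± 0.41, adjusted p = 1.9e-07). Only 5 of the 17650 genes tested had a lower log2 fold change. Without the 3 libraries that stood apart it was -5.85, and on the log2(RPKM + 1) scale, which compresses low values, -2.42.

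Lpar1 fell beside the fibroblastic and mural markers, of which Dcn and Acta2 also fell steeply. Dcn, a matrix proteoglycan, averaged 30.9 ± 18.3 CPM at 100 ng/mL and 760 ± 260 CPM unstimulated (log2 fold change -4.62 ± 0.42, adjusted p = 6.87e-07). Acta2, smooth muscle actin, averaged 18.7 ± 16.7 CPM at 100 ng/mL and 300 ± 64.2 CPM unstimulated (-4.00 ± 0.44, adjusted p = 4.85e-06). Within the unstimulated group Lpar1 was highest in library D, where Acta2 and Thy1 were also highest. In that library Col1a1, Dcn (464 CPM), Pdgfra (6.81 CPM) and Pdgfrb (30.2 CPM) were lowest. At 100 ng/mL Lpar1, Col1a1, Dcn, Acta2 and Pdgfra were all highest in library B, but Pdgfrb was highest in E and Thy1 in A. The part of fibroblastic and mural RNA in the fall of Lpar1 was not tested. By the root mean square difference of centred log2 levels over the 15 libraries, the pattern closest to Lpar1 among 12147 genes was that of Colec11 (0.38), a collectin, followed by Ak5 and Kank4 (both 0.52). Colec11 averaged 0.482 ± 0.391 CPM at 100 ng/mL and 18.3 ± 4.67 CPM unstimulated. For S1pr1 the closest were Cyb5r3 and Ntan1 (both 0.06) and Nkiras2 (0.07).

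The LPA receptors of the P2Y-like family did not follow Lpar1. Lpar6 (ENSMUSG00000033446, chr14:73237895-73243294, plus strand) measured 122, 103, 106, 96.1 and 118 CPM at 100 ng/mL, against 70, 91.3, 97.5, 111 and 85.5 CPM unstimulated. The groups overlapped, with unstimulated C and D among the treated values and unstimulated A lowest. Each treated library A to E was above its best-matched unstimulated library, D, E, B, B and C in turn, but no paired test was run. The log2 fold change was 0.26, with a 95% interval of 0.03 to 0.50, and did not pass (adjusted p = 0.0697). Without unstimulated D it passed, at 0.34 (adjusted p = 0.0196), and over all the alternatives its adjusted p ran between 0.0196 and 0.166. Lpar4 (ENSMUSG00000049929, chrX:106920625-106933900, plus strand) measured 8.01, 11, 3.35, 4.24 and 4.47 CPM at 100 ng/mL, against 3.02, 5.56, 4.83, 10.16 and 8.7 CPM unstimulated. The values overlapped throughout, and the interval of the log2 fold change, -0.85 to 0.74 around -0.06, was wide (adjusted p = 0.92).

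Among the LPA receptors Lpar6 made up 90.3 ± 3.56% of the summed RPKM of the 6 LPA receptor genes at 100 ng/mL and 60 ± 4.04% in unstimulated cells (SD, n = 5 each). The share of Lpar1 was 1.11 ± 0.875% at 100 ng/mL and 31.4 ± 4.51% unstimulated. Both shares were without overlap between the groups. Summed over the 6 receptors the level was 12.7 ± 1.22 RPKM at 100 ng/mL and 16.4 ± 2.62 RPKM unstimulated. Lpar2, a relative of Lpar1, fell to 3.28 ± 0.492 CPM at 100 ng/mL, against 5.73 ± 0.715 CPM unstimulated (log2 fold change -0.81 ± 0.11, adjusted p = 4.03e-05). Lpar3 and Lpar5 averaged 0.0897 and 0.0188 CPM at 100 ng/mL and 0.106 and 0.102 CPM unstimulated, and were not tested.

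Enpp2 (ENSMUSG00000022425, chr15:54838901-54952892, minus strand), the gene of the secreted LPA-producing enzyme autotaxin, fell at 100 ng/mL. It measured 15.2, 9.56, 28.7, 13.7 and 15.2 CPM in treated libraries A to E, against 84.6, 80, 68, 52 and 34.5 CPM in unstimulated ones. The groups did not overlap, although unstimulated E and treated C came close. Enpp2 fell 3.87-fold (log2 fold change -1.95 ± 0.32, adjusted p = 0.000199), and -1.97 without the 3 libraries that stood apart. Enpp2 is also known from high endothelial venules, the blood vessels through which lymphocytes enter the node. Their defining gene Chst4 was at 0.0544 CPM or less in every library. Glycam1, the other defining gene, averaged 0.00785 CPM at 100 ng/mL and 0.362 CPM unstimulated. The venule addressin gene Madcam1 averaged 0.354 ± 0.136 CPM at 100 ng/mL and 1.53 ± 0.55 CPM unstimulated (log2 fold change -2.09 ± 0.36, adjusted p = 0.000313). Of the 10 blood endothelial or venule markers tested, 3 rose and 3 fell, beside 21.4% and 21.5% of all genes tested. The summed level of the 13 markers listed ran between 3395 and 3988 CPM at 100 ng/mL and between 3664 and 4868 CPM unstimulated. The part of these cells in the fall of Enpp2 was not tested.

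The library lowest in Enpp2 was also the lowest in Prox1 in each group. Prox1, which encodes the transcription factor that specifies LECs, measured 336, 193, 814, 430 and 616 CPM in 100 ng/mL libraries A to E and 319, 323, 314, 155 and 102 CPM in unstimulated ones. These were 100 ng/mL B, 10 ng/mL D and unstimulated E, which were linked as best matches, so they may not be separate instances. The rest of the order differed, since at 100 ng/mL library D lay below A in Enpp2 and above it in Prox1. The LEC markers Lyve1 and Pdpn went the other way in the groups with less or no VEGF-C. They were highest where Enpp2 was lowest, at 272 and 156 CPM in 10 ng/mL D and at 185 and 181 CPM in unstimulated E. Between the groups Enpp2 and Prox1 did not go the same way, since Prox1 averaged 478 ± 242 CPM at 100 ng/mL and 243 ± 106 CPM unstimulated and did not pass the test (log2 fold change 0.98, adjusted p = 0.0589). The comparison with these markers was made after their values were seen.

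**Figure D4:**
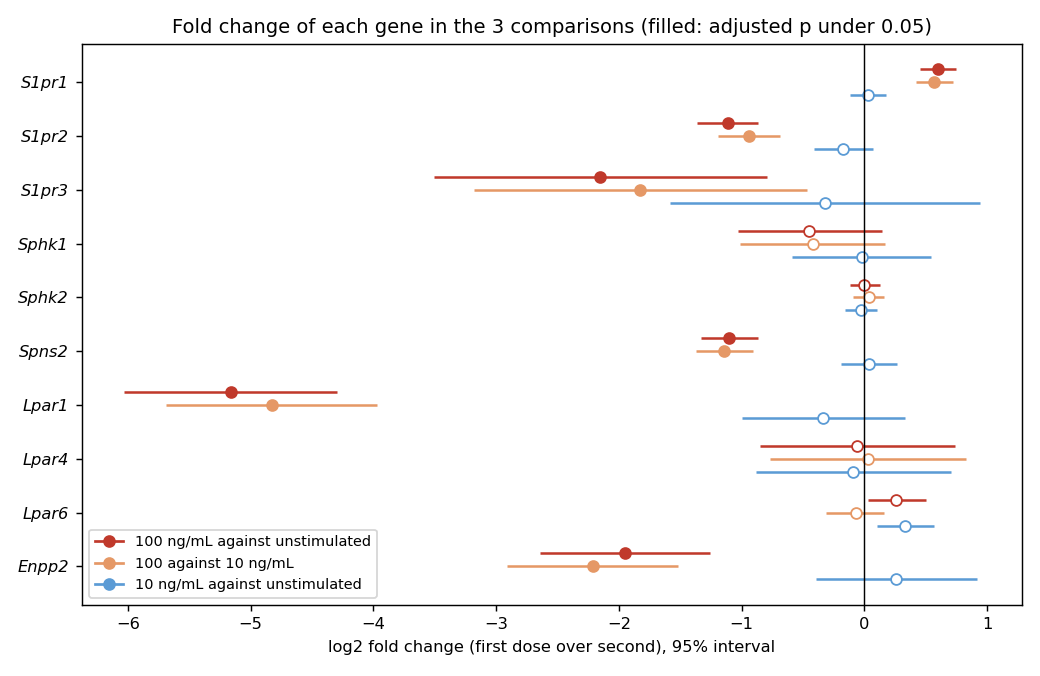
Log2 fold change of the 10 genes (horizontal axis) with its 95% interval for 100 ng/mL against unstimulated, 100 against 10 ng/mL and 10 ng/mL against unstimulated, with filled points where the adjusted p was under 0.05. In the comparisons with 100 ng/mL on top the same 6 genes are filled, from Lpar1 at -5.16 and -4.83 to S1pr1 at 0.60 and 0.57. No point is filled for 10 ng/mL against unstimulated.

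The comparison of 100 with 10 ng/mL gave 1 gene that rose, S1pr1, and 5 that fell, the same 6 genes as above. Of all genes 40.5% passed here, 19.9% higher and 20.6% lower. The 10 genes had a median of -0.68 and did not overlap between groups for 5 of 10, against a median of 0.01 and 25.6% over all genes. Both comparisons share the 100 ng/mL libraries, so they are not independent of each other. S1pr1 averaged 986 ± 105 CPM at 100 ng/mL and 666 ± 35.5 CPM at 10 ng/mL (log2 fold change 0.57 ± 0.07, adjusted p = 1.57e-05). Spns2 averaged 373 ± 35.5 CPM at 100 and 823 ± 105 CPM at 10 ng/mL (-1.14 ± 0.11, adjusted p = 1.25e-06). S1pr2 averaged 13.1 ± 2.37 CPM at 100 and 25.1 ± 2.12 CPM at 10 ng/mL (-0.94 ± 0.12, adjusted p = 1.48e-05). Lpar1 and Enpp2 were lower at 100 ng/mL here too. Lpar1 averaged 1.16 ± 0.93 CPM at 100 and 32.7 ± 11.5 CPM at 10 ng/mL (-4.83 ± 0.40, adjusted p = 3.96e-07). Enpp2 averaged 16.5 ± 7.22 CPM at 100 and 76.6 ± 24.8 CPM at 10 ng/mL (-2.21 ± 0.33, adjusted p = 7.74e-05). S1pr3, at 3.36 ± 2.04 CPM at 100 and 12 ± 8.19 CPM at 10 ng/mL, passed only narrowly (-1.83 ± 0.63, adjusted p = 0.0316). That call was lost when library A (adjusted p = 0.0742) or D (0.0747) of the 100 ng/mL group was left out, or library B (0.0856) or E (0.0791) of the 10 ng/mL group. In S1pr3 each 100 ng/mL library A to E was nonetheless below its best match, 10 ng/mL C, D, E, A and B in turn. A paired fit was not run. The 4 other genes did not pass, among them Lpar6 at -0.07 with an interval of -0.31 to 0.16.

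At 10 ng/mL against unstimulated cells 0 of the 10 genes passed, beside 0% of all genes by the edgeR test. All 10 overlapped between the groups, where 1.33% of all genes did not. The fit treated the groups as unpaired. Across these 2 groups, however, deviations of best-matched libraries correlated at 0.487 to 0.786, each under a different letter. Any spread shared by such libraries stayed in the error of the fit, and a fit paired by those matches was not run. Over all genes 844, or 4.78%, had an unadjusted p under 0.05, and the counts called were 0 by limma-voom and 10 by the DESeq2 Wald test. Lpar6 alone among the 10 had an unadjusted p under 0.05 (0.00882). It measured 106, 123, 132, 111 and 100.9 CPM at 10 ng/mL, against 70, 91.3, 97.5, 111 and 85.5 CPM unstimulated. Only unstimulated D reached into the range of the 10 ng/mL libraries. Each 10 ng/mL library A to E lay above its best match, unstimulated B, C, D, E and A in turn. The log2 fold change of Lpar6 was 0.33 ± 0.11 (SE, 95% interval 0.10 to 0.57, adjusted p = 0.969).

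The precision at 10 ng/mL differed between the genes. For the well-expressed S1pr1, Sphk2 and Spns2 the 95% intervals were narrow, at -0.12 to 0.18, -0.16 to 0.10 and -0.19 to 0.27 on the log2 scale. For S1pr2 the interval was -0.41 to 0.07. Those of the scarcer or more variable genes were wider. They were -1.0 to 0.33 for Lpar1, -0.39 to 0.92 for Enpp2, -0.59 to 0.54 for Sphk1, -0.88 to 0.71 for Lpar4 and -1.58 to 0.94 for S1pr3. All these intervals come from the unpaired fit and include any spread shared by best-matched libraries. Set beside its match (unstimulated B, C, D, E and A in turn), each 10 ng/mL library A to E was lower in Lpar1. Each was higher in Enpp2 and Lpar6, and the other genes went both ways. No paired test was run. Spns2 measured 892, 865, 892, 642 and 825 CPM and Lpar1 33.5, 28.5, 47.9, 16.5 and 37 CPM in 10 ng/mL libraries A to E. Library D was the lowest of its group for both, and for Enpp2 at 37.1 CPM, against 73.2 to 102 CPM in the other 4. The Spns2 to S1pr1 RPKM ratio was 0.957 ± 0.153 at 10 ng/mL and 0.944 ± 0.127 unstimulated.

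The enzymes around S1P moved in both directions at 100 ng/mL against unstimulated. Of 26 tested genes of S1P and ceramide turnover 6 rose and 11 fell, beside 21.4% and 21.5% of all genes tested. Their median log2 fold change was 0.08, against 0.01 over all genes. Cerk, ceramide kinase, rose to 233 ± 25.1 CPM at 100 ng/mL, against 142.7 ± 10.28 CPM unstimulated (0.71 ± 0.07, adjusted p = 2.92e-06). Degs1, which makes ceramide from dihydroceramide, rose as well (0.57 ± 0.10, adjusted p = 0.00035). Sgpp2, an S1P phosphatase gene, was close to the detection limit, at 0.456 ± 0.0549 CPM at 100 ng/mL and 0.0916 ± 0.0761 CPM unstimulated (adjusted p = 0.000434). Among the genes that fell, Ugcg, glucosylceramide synthase, averaged 228 ± 57.7 CPM at 100 ng/mL and 616 ± 105 CPM unstimulated (-1.43 ± 0.16, adjusted p = 5.27e-06). Sptlc2, a subunit of serine palmitoyltransferase at the start of sphingolipid synthesis, fell by 0.57 on the log2 scale (adjusted p = 2.19e-06). Ppap2a, a lipid phosphate phosphatase now named Plpp1, fell by 0.56 (adjusted p = 0.000205).

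Around LPA, 8 of 21 tested supply and lysophospholipid-metabolism genes rose and 5 fell, with a median of 0.09. Over all genes tested the shares were 21.4% and 21.5%. Liph, a phospholipase that releases LPA from phosphatidic acid, rose to 3.59 ± 1.01 CPM at 100 ng/mL, against 0.393 ± 0.168 CPM unstimulated (3.18 ± 0.30, adjusted p = 9.91e-07). Liph and Lpar6 act together in hair growth in humans. Gdpd1, which has lysophospholipase D activity, rose (0.73 ± 0.09, adjusted p = 1.18e-05), and so did Lpcat1, a lysophosphatidylcholine acyltransferase (0.60 ± 0.05, adjusted p = 6.05e-07). Agpat2, which acylates LPA to phosphatidic acid, fell to 4.16 ± 0.587 CPM at 100 ng/mL, against 10.15 ± 1.777 CPM unstimulated (-1.28 ± 0.14, adjusted p = 5.25e-06). Lpcat2 (-0.79) and Enpp1 (-1.42), a relative of autotaxin that cleaves nucleotides, fell too (adjusted p = 3.86e-06 and 0.000283). The others to fall, named after their values were seen, were Lcat (-0.64, adjusted p = 0.0125) and Mboat7 (-0.53, adjusted p = 0.000658).

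Downstream of the receptors, 11 of 27 tested G protein signalling genes rose and 4 fell, with a median of 0.17. Of all genes tested 21.4% rose and 21.5% fell. Gnai3, a Gi subunit, rose by 0.35 ± 0.05 and Gna12, which encodes the G12 subunit, by 0.39 ± 0.07 on the log2 scale (adjusted p = 2.43e-05 and 0.000203). Gnaq, the Gq subunit, fell to 145 ± 9.04 CPM at 100 ng/mL, against 315 ± 22.7 CPM unstimulated (-1.12 ± 0.07, adjusted p = 4.04e-08). Rgs3 (-0.71) and Rgs16 (-0.86), which switch G proteins off, fell as well (adjusted p = 0.0008 and 0.00138). The other to fall, Rgs4, was named after its value was seen, at 0.261 CPM at 100 ng/mL and 1.29 CPM unstimulated (-2.27 ± 0.60, adjusted p = 0.00683).

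Of the genes known to act on S1pr1, 7 were tested, of which 4 rose and 3 fell, with a median of 0.40. Of all genes tested 21.4% rose and 21.5% fell. Klf2, the factor that drives S1pr1 transcription in mouse T cells, measured 46.3, 24.3, 78.4, 38.2 and 55.1 CPM in 100 ng/mL libraries A to E, against 9.17, 7.4, 9.24, 18.1 and 21 CPM unstimulated. Its groups did not overlap, and library B was again the lowest treated one. The log2 fold change of Klf2 was 1.90 ± 0.36 (SE, adjusted p = 0.00067). Mef2c, which acts upstream of Klf2 in endothelium, rose to 120 ± 17.3 CPM at 100 ng/mL, against 23.4 ± 4.83 CPM unstimulated (2.35 ± 0.16, adjusted p = 4.27e-08). Dnm2, dynamin of receptor endocytosis, rose by 0.40 ± 0.05 (adjusted p = 1.62e-05). The fourth to rise, named here after its value was seen, was Klf4, a relative of Klf2 (0.62 ± 0.20, adjusted p = 0.0209). Stat3 fell to 239 ± 26.6 CPM at 100 ng/mL, against 336 ± 31.2 CPM unstimulated (-0.49 ± 0.08, adjusted p = 0.000155). Foxo1 (-0.34, adjusted p = 0.0134) and Wwp2 (-0.17, adjusted p = 0.0469), a ubiquitin ligase for S1pr1, fell slightly. None of the genes of these lists passed at 10 ng/mL by the edgeR test. There 1 gene of S1P and ceramide turnover and 1 of LPA supply had an unadjusted p under 0.05, and 0 of the other lists.

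In the GENCODE M21 annotation 7 of the 10 genes overlap another gene, and 6 share exon bases with one on the opposite strand. Without a statement that reads were counted by strand, the values of these genes are uncertain. Sphk2 shares 539 of its 4159 exon bases with Dbp, which fell (log2 fold change -1.02, adjusted p = 0.00352), and 373 with Rpl18. Lpar6 lies within Rb1 and shares 408 of 5400 exon bases with it, and Rb1 fell (-0.56, adjusted p = 0.000253). Spns2 shares 131 of 4083 exon bases with Mybbp1a, which rose (0.38, adjusted p = 0.0378), opposite to Spns2. Lpar1 overlaps Mir3095 and the pseudogene Gm12577 on its own strand but shares 0 exon bases with them. Gm12577 averaged 11.1 CPM at 100 ng/mL and 12.3 CPM unstimulated.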

How the data were processed

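Poly-A selected RNA was sequenced from 15 libraries with a stranded kit, per the labels' protocols. Groups and replicate letters came from the sample titles. Per the file headers, the table of 45706 Ensembl genes holds estimated counts and RPKM. Of the estimated counts that the authors deposited, 64.3% were fractional. The RPKM values deposited by the authors used a library total 1.86 to 1.92 times the sum of the counts. Bowtie2, FastQC and limma, with GRCm38 and mm10 as builds, are named in the submitters' processing notes. Not given in the sources used here are the read counter, whether it used strand, how it treated multi-mapping reads, and the annotation release. Coordinates come from GENCODE M21 (GRCm38), where 45143 identifiers were found.

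Estimated counts were rounded. The filter was filterByExpr, which kept 17650 genes. With TMM scaling, edgeR 4.0.16 (R 4.3.3) fitted 1 quasi-likelihood model to the 15 libraries, with no term other than group. P-values were adjusted by Benjamini-Hochberg over all genes tested, with a threshold of 0.05, and 95% intervals came from the fit. Levels within a gene are CPM with TMM scaling. Levels between genes are RPKM. Depth was similar between libraries, so precision rests on the 5 libraries per group, and the lowest estimated count behind a value of the 10 genes was 18.8. Every pair of libraries within a group differed beyond counting noise (smallest chi-square per degree of freedom 8.64). The script was tested on simulated data.

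The 10 genes and the gene lists were chosen with earlier results of these data known. All 10 genes were named, and from each list of receptor, lipid-metabolism, signalling and S1pr1-regulator genes up to 3 called genes with the smallest p in each direction at 100 ng/mL against unstimulated, of which 1 is not reported here. Cell type markers were outside that rule and were named where a result was set beside them. Likeness of pattern was measured for the genes with the largest rise and the largest fall. Promoter windows came from RefSeq (GRCm38.p6), matched by symbol, and motifs were searched on both strands. Alternatives covered scaling (size factors of DESeq2 1.42.0, or library size alone), filtering (none, or a mean of at least 1 CPM) and the tool (the DESeq2 Wald test, limma-voom with limma 3.58.1, and limma on log2(RPKM + 1) or log2(RPKM + 0.1)). Others fitted only the 10 libraries compared, added a replicate block, or left out each library in turn or the 3 that stood apart.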

Additional observations from a re-analysis of the deposited data

Results flagged for a closer look

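Each gene was examined for a library far from the other 4 of its group, with the gap to the nearest library divided by the range set against Dixon's 95% critical value of 0.71. Of 30 groups (10 genes at 3 doses) 4 were past it, and chance gives about 1 in 20. All 4 lay in the 3 libraries that stood apart, which were linked as best matches between the groups. They cannot be counted as separate events against that share.

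S1pr1 was low in 100 ng/mL B, at 804 CPM, against 1010 to 1079 CPM in the other 4 libraries. This is the treated library closest to the other groups on the first principal component, and it was also lowest of the treated 5 in the LEC markers Flt4 (1121 CPM) and Prox1 (193 CPM).

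Lpar1 was high in the same library, at 2.78 CPM, against 0.536 to 1.1 CPM in the other 4. The summed fibroblastic and mural markers were highest there too, at 1416 CPM, against 957 to 1085 CPM in the others. Their part in the value was not tested.

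Spns2 was low in unstimulated E, at 624 CPM, against 812 to 878 CPM in the other 4. It was likewise low in 10 ng/mL D, at 642 CPM, against 825 to 892 CPM. Enpp2 was lowest in the same libraries, at 34.5 and 37.1 CPM, and Prox1 too, at 102 and 158 CPM. Lyve1 was highest in them, at 185 and 272 CPM, as was Pdpn, at 181 and 156 CPM.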

How the results depend on the processing

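Under 26 alternatives the 6 genes called at 100 ng/mL against unstimulated kept their direction and their call, and the count of the 10 genes called was 6 or 7. It was 5 or 6 at 100 against 10 ng/mL. All genes called numbered 6575 to 8228 for 100 ng/mL against unstimulated and 6251 to 8104 for 100 against 10 ng/mL. At 10 ng/mL against unstimulated the DESeq2 Wald test called 10 genes, none of them among the 10 described, and leaving out single libraries gave 0 to 1 genes, with 1 without 100 ng/mL B. Of 780 values of the 10 genes, 733 kept direction and call, 6 lost the call, 1 gained it and 40 changed sign, all of these last for genes that did not pass. The 6 lost calls were all S1pr3 at 100 against 10 ng/mL, also with limma-voom (adjusted p = 0.0857) and on log2(RPKM + 1) (0.083). The cause was not tested.

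For Sphk2 at 100 ng/mL against unstimulated the log2 fold change was -0.04 with library size alone, -0.01 with no filter, -0.02 with a mean of at least 1 CPM, -0.0014 with limma-voom, -0.01 with only the 10 libraries, -0.04 on both RPKM scales, and -0.03 to 0.05 with single libraries left out. S1pr1 at 10 ng/mL against unstimulated was -0.0033 with library size alone and -0.01 on both RPKM scales. Lpar4 at 100 against 10 ng/mL was -0.05 with limma-voom, -0.0014 on log2(RPKM + 1), -0.03 on log2(RPKM + 0.1), -0.14 without the 3 libraries that stood apart, and -0.27 to 0.20 with single libraries left out. Sphk1 at 10 ng/mL against unstimulated was 0.05 without those 3 libraries. With single libraries left out it was -0.22 to 0.12, Lpar4 -0.36 to 0.17 at 100 ng/mL and -0.27 to 0.14 at 10 ng/mL, and Spns2 at 10 ng/mL -0.03 to 0.12, each against unstimulated. The size for the low genes depended on the scale: Lpar1 at 100 ng/mL against unstimulated ran between -5.85 and -2.42 and S1pr3 between -2.48 and -0.90, with the smaller falls on log2(RPKM + 1).

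Same-lettered libraries did not deviate together (correlations of -0.342 to 0.132), and each library's best match was under another letter (0.21 to 0.786). For 10 ng/mL A to E the best matches were unstimulated B, C, D, E and A (0.487 to 0.786). Those of 100 ng/mL A to E were 10 ng/mL C, D, E, A and B (0.21 to 0.428). Among unstimulated libraries they were D, E, B, B and C (0.236 to 0.559). The matches of 10 ng/mL to unstimulated and of 100 to 10 ng/mL used every library once. Followed in turn, they led from 100 ng/mL A to E to unstimulated D, E, A, B and C. The direct matches were the same except for C. Libraries may thus be matched between doses in sets under other letters, which the labels do not state. No fit took such matches into account. With the letter as a replicate block 7069 genes were called at 100 ng/mL against unstimulated and 0 at 10 ng/mL against unstimulated. At 100 against 10 ng/mL 6582 were called. Among the 10 described the counts were 6, 0 and 6 in the same order. Since the best matches ran across letters, this block cannot show what a fit paired by them would give. Depth limits Sphk1 and the 100 ng/mL levels of Lpar1, which rest on few counts.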
